A study of Mus musculus with 10 samples.

Results

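Checkpoint ligands are the surface or secreted proteins through which a tumour cell engages inhibitory or co-stimulatory receptors on T cells and macrophages. The transcripts of 9 such genes were followed in mouse melanoma cells: Cd274 (PD-L1), Tnfrsf14 (HVEM), Lgals9 (galectin-9), Lgals3 (galectin-3), Cd47, Pvr (CD155), Nectin2 (CD112), Cd276 (B7-H3) and Icosl. They were picked by gene symbol, as known ligands of T cell and macrophage receptors, from the 77175 entries of the count table. Earlier results of these data were known when they were picked. All 9 passed the low count filter that left 15526 genes for testing.

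PD-L1 binds PD-1 on activated T cells and dampens signalling through the T cell receptor. Interferon-γ, made by T cells and natural killer cells, signals through the kinases JAK1 and JAK2 to STAT transcription factors and the factor IRF1, and this route is the best known inducer of PD-L1 on tumour cells. The other ligands act on other receptors: HVEM on BTLA and CD160, galectin-9 on Tim-3, galectin-3 on LAG-3, CD47 on SIRPα of macrophages, CD155 and CD112 on TIGIT and the activating receptor CD226, and ICOSL on the co-stimulatory receptor ICOS, while the receptor of B7-H3 is unsettled.

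The cells were B16-F10, a melanoma line of C57BL/6 mice (WT), and B16-F10-OVA (OVA), the same line carrying an ovalbumin transgene from a lentiviral expression vector with an EF1A promoter and a neomycin selection marker. Each line was measured after 24 h of IFN-γ at 50 ng/ml, with 3 libraries, and untreated, with 2 libraries. The labels do not say whether OVA is a single clone, and ovalbumin is carried by both OVA groups and by neither WT group. The question of the series is whether IFN-γ acts differently on the 2 lines. Nothing in the labels makes the replicates separate cultures, and p-values then weigh a difference only against the spread among these libraries, which may be technical.

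Each of the 10 libraries held between 17728722 and 19642533 counts, and levels are given as CPM, counts scaled to the size of the library. The 7 melanocyte markers summed to between 23096 and 24500 CPM in every library. Ptprc, Cd3e, Itgax, Flt3, Kdr, Epcam and Krt8, markers of leukocytes, T cells, dendritic cells, endothelium and epithelium, had no counts in any. Other markers of these cell types had some. Per library, Zbtb46 (dendritic cells) had 155 to 198 counts, Cdh1 (epithelium) 10 to 28 and Pecam1 (endothelium) 4 to 17. The 6 myeloid markers summed to 3.25 to 3.57 CPM in treated OVA, 2.16 to 2.96 CPM in untreated OVA, 3.46 to 5.04 CPM in treated WT and 2.37 to 3.25 CPM in untreated WT. Among them, Cd68 had 26 to 79 counts per library. It rose under IFN-γ by 0.70 on the log2 scale in OVA (adjusted p = 0.0256) and 0.81 in WT (adjusted p = 0.0110). Neither adjusted p stayed under 0.05 with every library left out in turn. The part of the myeloid markers in the results was not tested. The marker lists of T cells, B cells, dendritic cells, fibroblasts, endothelium and epithelium each summed to at most 11.1 CPM in any library. Irf1 rose by 5.99 ± 0.069 in OVA and 6.04 ± 0.069 in WT on the log2 scale (SE), which checks the treatment labels. In bulk RNA, fewer cells of a type and less RNA per cell cannot be told apart.

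IFN-γ raised 6 of the 9 ligand transcripts in each line. Cd274, Tnfrsf14, Lgals9, Cd47 and Lgals3 rose at least 2-fold and Pvr by 1.18-fold in OVA and 1.15-fold in WT, while Cd276 and Icosl did not pass the test in either line and Nectin2 fell slightly in WT. A gene was called when its adjusted p was under 0.05. In OVA, 6 members were called higher and 0 lower, where 25.9% of all tested genes were called higher and 22.9% lower. In WT, 6 were called higher and 1 lower, against 24.5% and 19.7% of all tested genes. At 2-fold or more, 5 members were called higher in each line, where 5.29% of all tested genes were in OVA and 4.93% in WT. The members were chosen with earlier results of these data known, so these shares are no independent test of them. Tnfrsf14, with 1 to 6 counts in untreated WT libraries and 3 in untreated OVA ones, passed the low count filter only through its treated libraries. The median log2 change of the 9 members was 1.67 in OVA and 1.42 in WT, beside medians of 0.0018 and 0.011 for all tested genes. The treated and untreated libraries did not overlap for 7 of the 9 members in each line, which was also the case for 65.6% of all tested genes in OVA and 62.0% in WT.

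**Figure D1:**
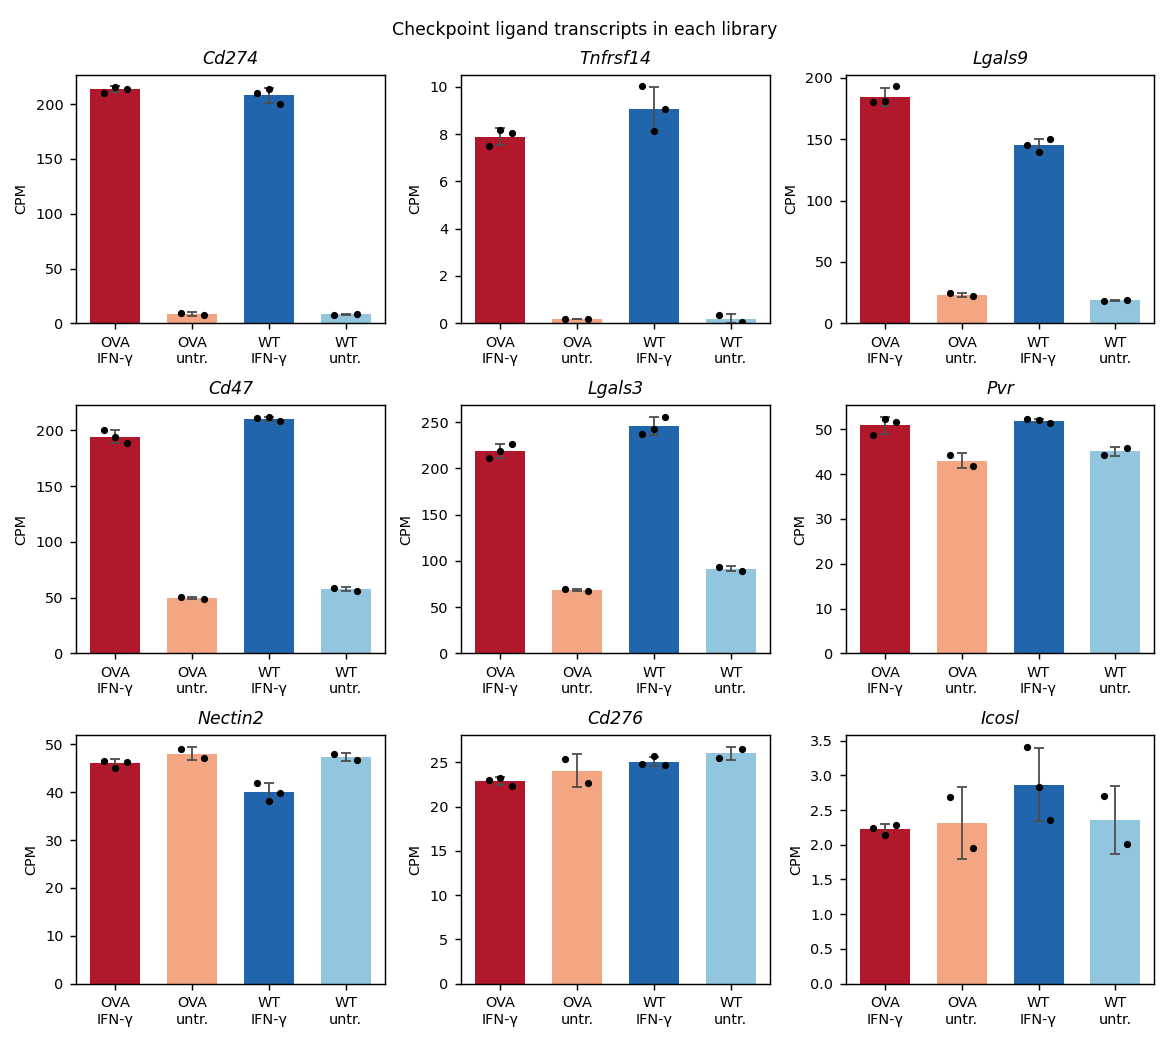
Level of each ligand transcript in CPM in the 4 groups; points are libraries (3 treated, 2 untreated per line), bars are means and error bars are SDs. Cd274 stands at 200 to 216 CPM in all 6 treated libraries and at 7.41 to 9.59 CPM in the 4 untreated ones, while the Cd276 and Icosl points of treated and untreated libraries intermix.

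Cd274 was scarce in untreated cells and abundant after IFN-γ. It had 210, 216 and 214 CPM in treated OVA libraries, against 9.59 and 7.41 CPM in untreated ones. In WT it had 210, 214 and 200 CPM in treated libraries, against 8.01 and 8.40 CPM in untreated ones. Every treated library lay far above every untreated library, and the treated libraries of the lines overlapped. The rise was 25.1-fold in OVA (95% interval 22.1 to 28.5, adjusted p = 3.55e-19) and 25.3-fold in WT (22.2 to 28.9, adjusted p = 4.03e-19). A gene on the opposite strand, Gm36043 in the count table and AC119228.1 in GENCODE M21 under the same Ensembl identifier, shares 511 exonic bases with Cd274 in that annotation, and the libraries are not stated to be stranded, so reads of this pair cannot be told apart there. Gm36043 itself had 455, 426 and 378 counts in treated OVA libraries, against 26 and 21 in untreated ones, and 554, 580 and 525 counts in treated WT libraries, against 39 and 30 in untreated ones. These counts were below those of Cd274, which ran from 3760 to 4157 in treated libraries and from 137 to 175 in untreated ones. Gm36043 also rose under IFN-γ, and the effect of the overlap on the fold change of Cd274 was not tested.

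Tnfrsf14, the ligand of the inhibitory receptor BTLA, was near the limit of detection without IFN-γ. It had 134, 145 and 144 counts in treated OVA libraries, against 3 and 3 in untreated ones. In WT it had 185, 158 and 173 counts in treated libraries, against 6 and 1 in untreated ones. No treated library came near an untreated one. The summed counts, scaled by library size, gave a ratio of 48.3 in OVA (95% counting interval 22.0 to 132) and of 46.5 in WT (22.4 to 116), and such intervals cover counting error only. The fitted log2 change was 5.54 ± 0.548 in OVA (SE, adjusted p = 9.40e-11) and 5.49 ± 0.509 in WT (adjusted p = 5.52e-11). Its size in WT hangs on the untreated libraries: it was 7.18 without WT untreated replicate 1 and 4.75 without WT untreated replicate 2.

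The galectins, which bind glycans on receptors such as Tim-3 and LAG-3, both rose. Lgals9 had 180, 181 and 193 CPM in treated OVA libraries, against 24.3 and 21.9 CPM in untreated ones. In WT, Lgals9 had 145, 140 and 151 CPM in treated libraries, against 18.4 and 18.8 CPM in untreated ones. Treated and untreated libraries were well apart, and the OVA libraries lay above the WT libraries of the same treatment. The rise of Lgals9 was 8.00-fold in OVA (95% interval 7.32 to 8.75, adjusted p = 1.42e-17) and 7.80-fold in WT (7.08 to 8.59, adjusted p = 3.94e-17). Lgals3 started from a higher level, with 211, 219 and 227 CPM in treated OVA libraries, against 69.8 and 67.9 CPM in untreated ones. In WT, Lgals3 had 237, 243 and 256 CPM in treated libraries, against 93.5 and 89.5 CPM in untreated ones. Again no treated library overlapped an untreated one, and here the OVA libraries lay below the WT libraries of the same treatment. Lgals3 rose 3.18-fold in OVA (2.98 to 3.39, adjusted p = 2.80e-15) and 2.68-fold in WT (2.52 to 2.85, adjusted p = 1.56e-14).

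Cd47, which signals to macrophages through SIRPα and limits phagocytosis, had 201, 194 and 189 CPM in treated OVA libraries, against 50.6 and 48.9 CPM in untreated ones. In WT it had 211, 212 and 208 CPM in treated libraries, against 59.1 and 56.2 CPM in untreated ones. Treated libraries exceeded untreated ones without overlap, and each WT library exceeded the OVA libraries of its treatment. Cd47 rose 3.91-fold in OVA (95% interval 3.68 to 4.15, adjusted p = 6.75e-17) and 3.65-fold in WT (3.44 to 3.87, adjusted p = 1.07e-16). The table lists a transcript antisense to Cd47, which had 6 to 9 counts in treated OVA libraries and 8 to 11 in untreated ones, and 10 to 13 in treated WT libraries and 2 to 5 in untreated ones.

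The ligands of TIGIT and CD226 changed little. Pvr had 48.8, 52.4 and 51.6 CPM in treated OVA libraries, against 44.2 and 41.9 CPM in untreated ones. In WT, Pvr had 52.3, 52.0 and 51.5 CPM in treated libraries, against 44.3 and 45.8 CPM in untreated ones. The treated libraries were higher without overlap in both lines, by small margins, with a rise of 1.18-fold in OVA (95% interval 1.10 to 1.27, adjusted p = 0.000494) and 1.15-fold in WT (1.07 to 1.24, adjusted p = 0.00224). Nectin2 had 46.6, 45.0 and 46.4 CPM in treated OVA libraries, against 49.1 and 47.1 CPM in untreated ones. In WT, Nectin2 had 42.0, 38.1 and 39.7 CPM in treated libraries, against 47.9 and 46.7 CPM in untreated ones. The treated WT libraries were the lowest of the 4 groups and did not overlap the untreated ones, and the treated OVA libraries also lay just under their untreated ones. Nectin2 fell in WT, to 0.844 of the untreated level (0.783 to 0.909, adjusted p = 0.000790), and its ratio in OVA was 0.958 (0.890 to 1.03, adjusted p = 0.324). Nectin2 shares 135 exonic bases with Gm20512 (Lncob1 in the count table) on the opposite strand, which had 0 to 2 counts per library.

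Cd276 and Icosl, the remaining B7 family ligands, did not pass the test. Cd276 had 23.1, 23.2 and 22.4 CPM in treated OVA libraries, against 25.4 and 22.7 CPM in untreated ones, and 24.8, 25.7 and 24.7 CPM in treated WT libraries, against 25.5 and 26.6 CPM in untreated ones. The treated and untreated ranges overlapped in each line. The 95% interval of the Cd276 ratio was 0.868 to 1.04 in OVA (adjusted p = 0.380) and 0.881 to 1.05 in WT (adjusted p = 0.515). Icosl was sparse, with 40, 38 and 41 counts in treated OVA libraries, against 49 and 36 in untreated ones, and 63, 55 and 45 counts in treated WT libraries, against 49 and 36 in untreated ones. These ranges also overlapped, and at this depth the 95% interval of the Icosl ratio was wide, 0.686 to 1.34 in OVA (adjusted p = 0.853) and 0.876 to 1.67 in WT (adjusted p = 0.335). Cd276 shares 416 exonic bases with Gm10657 on the opposite strand, which had 0 to 3 counts per library.

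**Figure D2:**
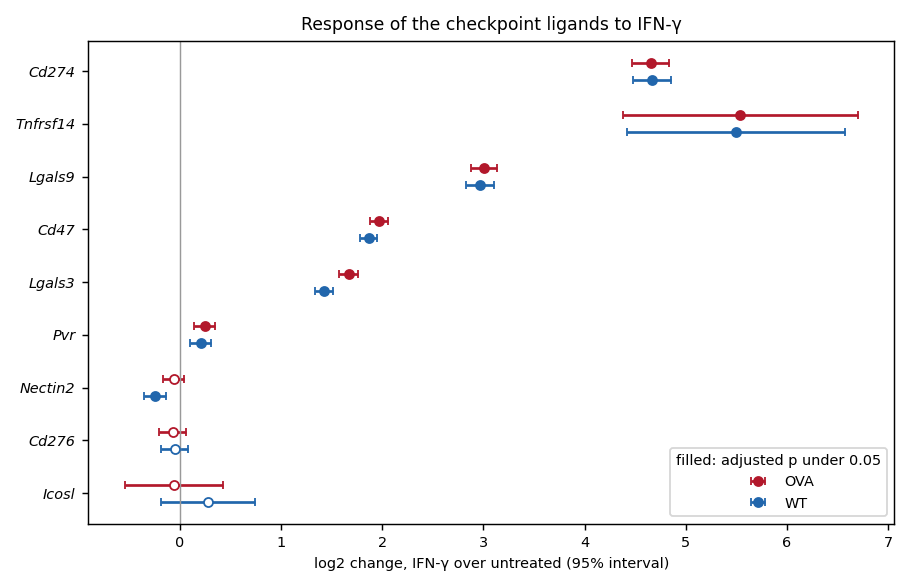
Log2 change of each ligand transcript, IFN-γ over untreated, in OVA and WT; points are fitted values, bars 95% intervals, and filled points have an adjusted p under 0.05. Tnfrsf14 and Cd274 lie farthest right, at 5.54 and 4.65 in OVA and 5.49 and 4.66 in WT, and the intervals of Cd276 and Icosl include 0.

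The stretch of 250 bases before the transcription start was read for 4 of the ligands that rose most, since IRF factors bind elements such as GAAA, any 2 bases, GAAA (here the IRF-type form) and STAT dimers bind elements such as TTC, any 3 bases, GAA (the STAT-type form). The sequences are those of RefSeq on GRCm38.p6, written 5′ to 3′ on the strand of the gene, with a match to the IRF-type form in capitals (the matches lie on the opposite strand, so the capitals show the reverse complement). Cd274 is shown from chr19:29367188-29367437 (+), Tnfrsf14 from chr4:154928078-154928327 (-), Lgals9 from chr11:78984925-78985174 (-) and Cd47 from chr16:49855404-49855653 (+).
Tnfrsf14: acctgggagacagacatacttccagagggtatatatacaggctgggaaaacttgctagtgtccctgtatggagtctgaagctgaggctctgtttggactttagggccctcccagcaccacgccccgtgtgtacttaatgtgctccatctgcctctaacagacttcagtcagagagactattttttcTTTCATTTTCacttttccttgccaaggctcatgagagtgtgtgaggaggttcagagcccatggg
Lgals9: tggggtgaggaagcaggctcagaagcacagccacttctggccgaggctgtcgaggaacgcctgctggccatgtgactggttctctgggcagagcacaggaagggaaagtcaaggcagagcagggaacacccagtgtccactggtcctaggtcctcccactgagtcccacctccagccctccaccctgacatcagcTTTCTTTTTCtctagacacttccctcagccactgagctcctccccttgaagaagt
Cd274: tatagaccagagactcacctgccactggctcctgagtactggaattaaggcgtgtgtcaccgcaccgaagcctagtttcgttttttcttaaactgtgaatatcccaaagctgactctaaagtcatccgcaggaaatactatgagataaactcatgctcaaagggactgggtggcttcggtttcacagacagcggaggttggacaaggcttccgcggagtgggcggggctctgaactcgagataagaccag
Cd47: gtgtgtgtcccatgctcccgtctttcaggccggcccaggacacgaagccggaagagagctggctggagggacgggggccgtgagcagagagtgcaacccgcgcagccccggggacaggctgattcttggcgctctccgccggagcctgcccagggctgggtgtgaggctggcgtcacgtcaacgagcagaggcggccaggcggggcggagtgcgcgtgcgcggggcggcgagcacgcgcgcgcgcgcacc

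A RefSeq window of these 250 bases plus the next 50 was at hand for 8 of the 9 members, and both strands were searched. The IRF-type form was found in Tnfrsf14, as TTTCATTTTC at 64 to 55 bases before the start, and in Lgals9, as TTTCTTTTTC at 55 to 46 bases before the start and again at bases 16 to 25 after it. It was not in the windows of Cd274, Cd47, Lgals3, Cd276, Nectin2 or Icosl, and the STAT-type form was in none of the 8 windows, which says only that these letters are not there. Of all 32851 mouse promoter windows, 3.443% held the IRF-type form and 8.298% the STAT-type form. Among the 430 genes with a window that rose at least 2-fold in both lines, 102 (23.7%) held the IRF-type form, beside 395 of 10173 (3.88%) tested genes with a window. These shares describe the sequences, were not tested and do not identify bound sites.

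To set the ligands against each other, CPM was divided by the length of each gene's merged exons in kilobases. The lengths of the transcripts present were not measured, so the ranks depend on this choice. In CPM alone, the means in treated OVA cells were 213 for Cd274, 194 for Cd47 and 185 for Lgals9. Per kilobase, the order in treated OVA cells was Lgals3 at 118, Lgals9 at 86.4, Cd274 at 58.9, Cd47 at 31.0, Nectin2 at 13.2, Pvr at 8.32, Cd276 at 6.26, Tnfrsf14 at 5.49 and Icosl at 0.481 CPM per kilobase, with no overlap between neighbours. In untreated OVA cells Lgals3 was again highest at 37.1, followed by Nectin2 at 13.8, Lgals9 at 10.8, Cd47 at 7.92, Pvr at 7.03, Cd276 at 6.57, Cd274 at 2.35, Icosl at 0.501 and Tnfrsf14 at 0.114 CPM per kilobase, and here Pvr and Cd276 overlapped. Cd274 thus took the third place under IFN-γ and the seventh without it.

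WT cells gave nearly the same order. Under IFN-γ the levels per kilobase were 132 CPM for Lgals3, 67.9 for Lgals9, 57.4 for Cd274, 33.5 for Cd47, 11.4 for Nectin2, 8.48 for Pvr, 6.86 for Cd276, 6.31 for Tnfrsf14 and 0.620 for Icosl, and Cd276 and Tnfrsf14 overlapped. Untreated WT cells had 49.2 CPM per kilobase of Lgals3, 13.5 of Nectin2, 9.19 of Cd47, 8.71 of Lgals9, 7.36 of Pvr, 7.12 of Cd276, 2.27 of Cd274, 0.511 of Icosl and 0.135 of Tnfrsf14, with an overlap between Pvr and Cd276 and with Tnfrsf14 at 0.230 and 0.0390 in its pair of libraries. Untreated OVA and WT differed in order only in the places of Lgals9 and Cd47. The summed level of all 9 ligands was 328 ± 7.06 CPM per kilobase in treated OVA cells, 86.1 ± 3.44 in untreated OVA cells, 325 ± 4.6 in treated WT cells and 98.1 ± 1.81 in untreated WT cells (SD, n = 3 treated and 2 untreated). Of that sum, Cd274 made up 18.0% in treated OVA, 2.72% in untreated OVA, 17.7% in treated WT and 2.31% in untreated WT. Lgals3 made up 35.9%, 43.1%, 40.7% and 50.2% in the same 4 groups.

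**Figure D3:**
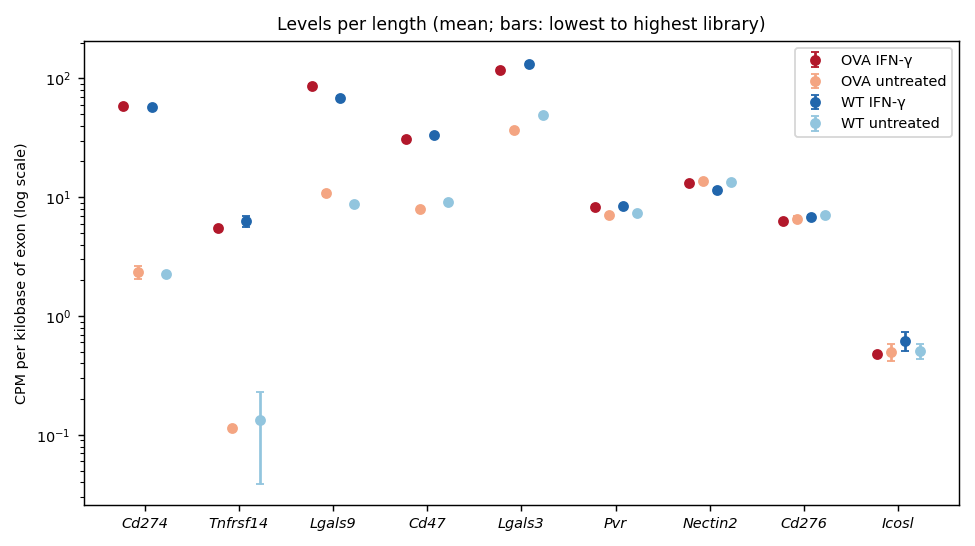
Level of each ligand transcript per kilobase of merged exons, in CPM per kilobase on a log scale, in the 4 groups; points are means and bars run from the lowest to the highest library. Lgals3 is highest in every group, and Cd274 stands at 58.9 and 57.4 in treated OVA and WT and at 2.35 and 2.27 in untreated OVA and WT.

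Unequal responses of the lines were tested as the difference of the log2 changes, OVA minus WT. For Cd274 the difference was -0.01, with a 95% interval of -0.28 to 0.25 and an adjusted p of 0.992, so responses differing by more than 0.28 on the log2 scale lie outside the interval. It was 0.04 for Lgals9 (-0.15 to 0.23), 0.04 for Pvr (-0.11 to 0.18), 0.10 for Cd47 (-0.02 to 0.22) and -0.02 for Cd276 (-0.20 to 0.17). The interval was far wider for Tnfrsf14, -1.54 to 1.63 around 0.05, and for Icosl, -1.01 to 0.34 around -0.34. In edgeR with the low count filter, 0 of the 9 members were called, where 0.341% of all tested genes were, and 2 had an unadjusted p under 0.05. Those were Lgals3, at 0.24 (0.11 to 0.37, unadjusted p = 0.000997, adjusted p = 0.130), and Nectin2, at 0.18 (0.03 to 0.33, unadjusted p = 0.0205, adjusted p = 0.370). DESeq2 called Lgals3 (adjusted p = 0.0317) and gave 1 member with an unadjusted p under 0.05, and limma-voom called 0 and gave 2. Lgals3 was also called by edgeR with no low count filter (adjusted p = 0.00825) and without WT IFN-γ replicate 3 (adjusted p = 0.0312).

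The lines did differ in level for some ligands. Lgals9 was higher in OVA in both conditions, by 0.35 on the log2 scale under IFN-γ (95% interval 0.27 to 0.43, adjusted p = 8.11e-06) and by 0.31 untreated (0.14 to 0.48, adjusted p = 0.0323). Lgals3 was lower in OVA, by a log2 difference of -0.17 under IFN-γ (-0.24 to -0.09, adjusted p = 0.00336) and -0.41 untreated (-0.52 to -0.30, adjusted p = 8.39e-05). Cd47 was lower in OVA as well, at -0.11 under IFN-γ (-0.18 to -0.05, adjusted p = 0.0181) and -0.21 untreated (-0.32 to -0.11, adjusted p = 0.0153). Nectin2 was higher in OVA under IFN-γ, by 0.21 (0.11 to 0.30, adjusted p = 0.00621), while its untreated difference was 0.02 (-0.09 to 0.14, adjusted p = 0.885). The widest of these differences was that of untreated Lgals3, at 0.753 of the WT level (95% interval 0.699 to 0.811).

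Cd274 did not pass the test between the lines, at 0.04 under IFN-γ (95% interval -0.04 to 0.11, adjusted p = 0.549) and 0.05 untreated (-0.20 to 0.30, adjusted p = 0.881). Tnfrsf14, Pvr, Cd276 and Icosl did not pass in either condition either. Under IFN-γ this made 2 members higher and 2 lower in OVA, beside 6.36% and 7.99% of all tested genes. Untreated it made 1 higher and 2 lower, beside 2.98% and 2.55%. OVA and WT libraries did not overlap for 6 members under IFN-γ and 5 untreated, which was the case for 31.1% and 49.7% of all tested genes.

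Some of these line differences rest on few libraries. For untreated Lgals9, leaving out WT replicate 1 (adjusted p = 0.171), WT replicate 2 (0.139) or OVA replicate 1 (0.272) ended the call. For untreated Cd47, leaving out WT replicate 1 (0.170), OVA replicate 1 (0.0674) or OVA replicate 2 (0.158) did so. Under IFN-γ the Cd47 call was lost without WT replicate 1 (0.0547) or 2 (0.0693) or OVA replicate 2 (0.0670) or 3 (0.0944). The Lgals3 differences, and those of Lgals9 and Nectin2 under IFN-γ, passed with any 1 library left out.

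**Figure D4:**
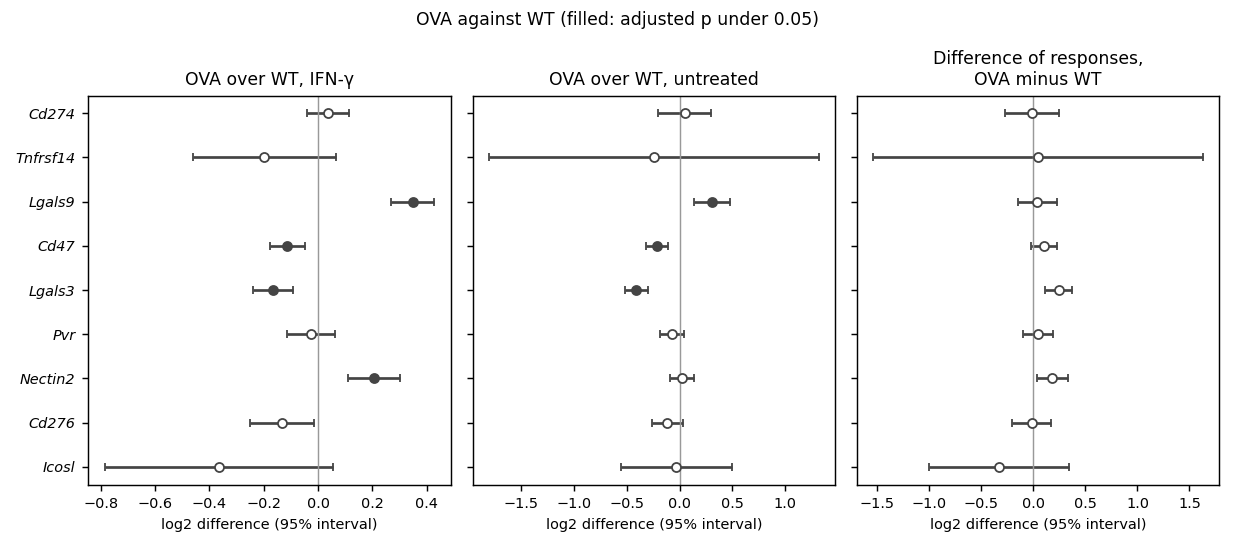
Log2 difference of each ligand transcript between the lines, OVA over WT, under IFN-γ and untreated, and the difference of the IFN-γ responses, OVA minus WT; bars are 95% intervals and filled points have an adjusted p under 0.05. Lgals9 lies right of 0 (0.35 and 0.31) and Lgals3 left of it (-0.17 and -0.41) in the first 2 panels, and no point is filled in the last.

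The genes whose profile over the 10 libraries was closest to that of each strongly raised ligand were found by the root mean square (RMS) difference of centred log2 CPM. For Cd274 they were Parp12 (0.092), Dtx3l (0.11), Parp9 (0.12), the peptide-trimming enzyme Erap1 (0.15) and the class I gene H2-T22 (0.16). For Tnfrsf14 they were Misp (0.24), the JAK inhibitor Socs1 (0.28), Uba7 (0.30), H2-DMb1 (0.32) and Slamf8 (0.34). The fitted log2 changes in OVA and WT were 9.08 and 6.72 for Misp and 8.87 and 9.22 for Slamf8. They were 5.04 and 5.70 for Socs1, 5.32 and 5.38 for Uba7 and 4.76 and 4.63 for H2-DMb1, beside 5.54 and 5.49 for Tnfrsf14. The log2 CPM held a prior count of 2, so genes with few untreated counts can lie close although their fitted changes differ. Lgals9 was closest to Rnf135 (0.093), Ifi27 (0.11), Lgals3bp (0.12), Apobec1 (0.14) and Trim25 (0.14). Lgals3 was closest to Glipr2 (0.096), Pcgf5 (0.10), Acacb (0.11), Nfix (0.12) and Pltp (0.12). Cd47 was closest to Unc93b1 (0.048), Il17rc (0.069), AU020206 (0.085), Rnf31 (0.094) and Adar (0.10).

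Most other checkpoint ligands were too scarce to test. Of 8 further B7 and butyrophilin family genes, including Pdcd1lg2 (PD-L2, the other PD-1 ligand), Cd80 and Cd86, only Btn2a2 passed the low count filter, with a log2 change of -0.19 in OVA (adjusted p = 0.467) and -0.23 in WT (adjusted p = 0.459). Pdcd1lg2 had 0 or 1 count in each of the 10 libraries, beside the 3760 to 4157 counts of Cd274 after IFN-γ. Of 6 genes, Cd40 and TNF superfamily ligands, only Tnfsf9 (4-1BB ligand) was tested, at -0.25 in OVA (adjusted p = 0.0976) and 0.16 in WT (adjusted p = 0.311). None of 6 enzymes of metabolic immune inhibition, Ido1 and Nt5e among them, passed the filter.

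Of 10 other ligands, 5 were tested, and in each line 2 rose and 2 fell. Of all tested genes, 25.9% were called higher and 22.9% lower in OVA, and 24.5% and 19.7% in WT. H2-T23, which encodes Qa-1, the ligand of the inhibitory receptor NKG2A, rose by 8.26 ± 0.239 in OVA (log2, SE, adjusted p = 1.02e-20) and 7.83 ± 0.208 in WT (adjusted p = 1.14e-20), with means of 252 CPM in treated OVA, 0.816 in untreated OVA, 255 in treated WT and 1.11 in untreated WT. Lgals1 (galectin-1) rose by 0.37 in OVA and 0.18 in WT. Ceacam1, which binds Tim-3 and itself, fell by 1.06 in OVA and 1.35 in WT, and Hmgb1 fell by 0.23 in OVA and 0.20 in WT. Nectin3 was not called, at -0.08 and -0.02. The median over the 5 was -0.08 in OVA and -0.02 in WT.

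Among 13 genes that drive or restrain transcription of PD-L1, 8 rose and 3 fell in OVA and 8 rose and 1 fell in WT. The shares of all tested genes called higher and lower were 25.9% and 22.9% in OVA and 24.5% and 19.7% in WT. The median log2 change of the 13 genes was 0.86 in OVA and 0.91 in WT. Besides Irf1, Stat2 rose by 4.26 ± 0.065 in OVA and 4.28 ± 0.067 in WT (SE), Irf9 by 3.76 in OVA and 3.68 in WT, Stat3 by 2.89 in OVA and 2.79 in WT, and Irf2 by 1.47 in OVA and 1.67 in WT. Myc, an oncogene reported to raise PD-L1 transcription, fell by 0.24 in OVA and 0.33 in WT. Nfkb1 fell by 0.21 in OVA (adjusted p = 0.000183) and had a log2 change of -0.03 in WT (adjusted p = 0.565). These 2 genes were singled out after their values were seen.

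Among 16 genes whose products act on PD-L1 protein, roles known mostly from human cells, 3 rose and 9 fell in OVA. In WT, 5 rose and 9 fell. Beside them, 25.9% of all tested genes were called higher and 22.9% lower in OVA, and 24.5% and 19.7% in WT. The median log2 change of the 16 genes was -0.16 in OVA and -0.12 in WT. B3gnt3, a glycosyltransferase that modifies PD-L1, rose by 1.13 ± 0.108 in OVA and 0.96 ± 0.108 in WT (SE). Cmtm6, which protects PD-L1 from lysosomal degradation, had a log2 change of 0.14 in OVA (adjusted p = 0.0524, and 0.0254 without OVA untreated replicate 2) and rose by 0.35 in WT (adjusted p = 0.000106). Its relative Cmtm4 fell by 0.46 in OVA and 0.32 in WT, and Zdhhc3, a palmitoyltransferase of PD-L1, fell by 0.39 in OVA and 0.35 in WT. Gsk3b, a kinase that marks PD-L1 for degradation, fell by 0.35 in OVA and 0.16 in WT, where leaving out WT untreated replicate 2 ended the call (adjusted p = 0.0510). Hip1r, which sends PD-L1 to lysosomes, fell by 0.27 in OVA (adjusted p = 0.476 without OVA untreated replicate 2) and 0.34 in WT (0.137 without WT untreated replicate 1). DESeq2 on all libraries did not call Hip1r in OVA (adjusted p = 0.0518). With 1 library left out, the number of the 16 genes called ran from 11 to 13 in OVA, against 12 with all libraries, and from 10 to 13 in WT, against 14.

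**Figure D5:**
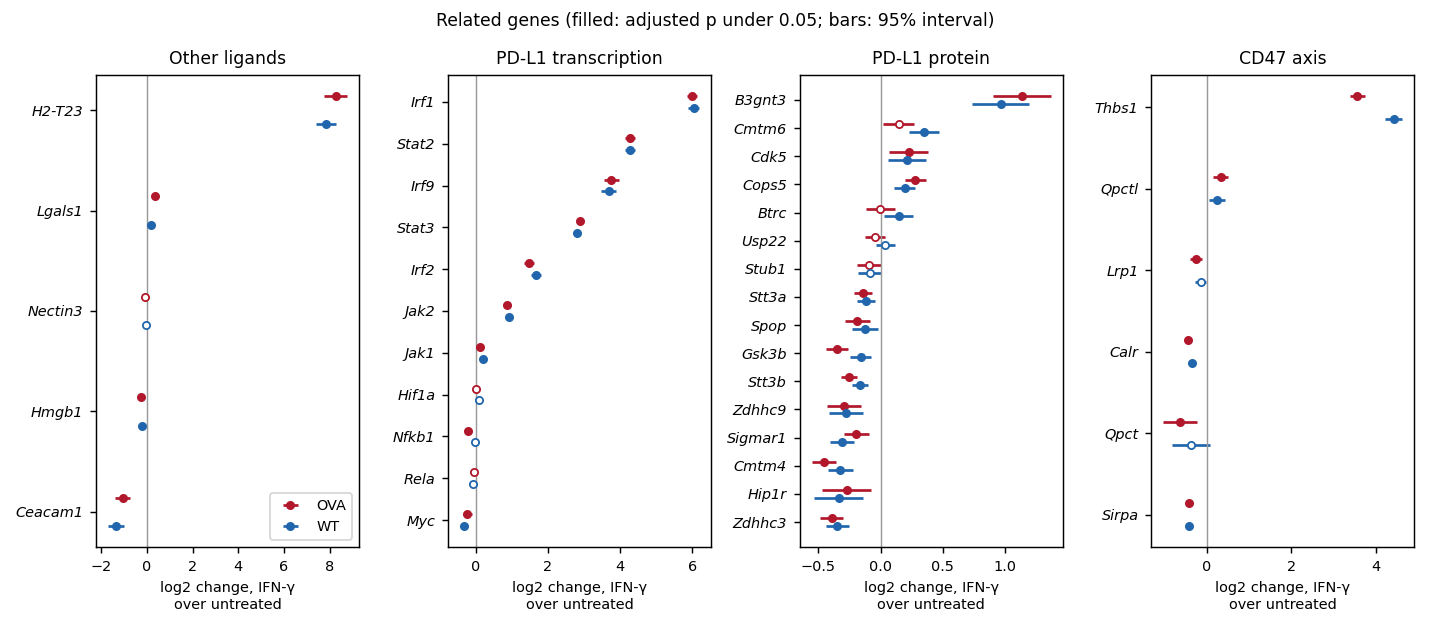
Log2 change, IFN-γ over untreated, in OVA and WT of tested genes in 4 groups. These are other ligands, genes of PD-L1 transcription, genes acting on PD-L1 protein and genes linked to CD47. Bars are 95% intervals and filled points have an adjusted p under 0.05. H2-T23 (8.26 in OVA, 7.83 in WT), Irf1 (5.99 and 6.04) and Thbs1 (3.56 and 4.43) lie farthest right, while in the PD-L1 protein panel B3gnt3 (1.13 in OVA, 0.96 in WT) lies farthest right.

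Of 6 genes linked to CD47, 2 rose and 4 fell in OVA and 2 rose and 2 fell in WT. The alternative fits called 4 to 6 of them in OVA and 3 to 4 in WT. Over all tested genes, 25.9% were called higher and 22.9% lower in OVA, and 24.5% and 19.7% in WT. Thbs1 (thrombospondin-1, a secreted CD47 ligand) rose by 3.56 ± 0.084 in OVA and 4.43 ± 0.097 in WT (SE). Sirpa, the CD47 receptor, was detected in every library and fell by 0.43 in each line, to a mean of 244 CPM in treated OVA, against 328 CPM in untreated OVA, and of 239 CPM in treated WT, against 320 CPM in untreated WT. Calr, which encodes calreticulin, fell by 0.45 in OVA and 0.35 in WT. Qpctl, the enzyme that modifies the SIRPα binding site of CD47, changed by 0.32 in OVA (adjusted p = 0.00586) and 0.24 in WT (adjusted p = 0.0416). Its OVA call ended without OVA untreated replicate 2 (0.0502). The WT call of Qpctl ended without any 1 library other than WT IFN-γ replicate 3 and OVA untreated replicate 2 (0.0589 to 0.189). DESeq2 on all libraries called Qpctl in neither line (adjusted p = 0.0719 in OVA and 0.248 in WT). Its relative Qpct changed by -0.64 in OVA (adjusted p = 0.00956) and -0.39 in WT (adjusted p = 0.161). The OVA call of Qpct ended without OVA untreated replicate 2 (0.0614) and with DESeq2 (0.0746). Lrp1 changed by -0.27 in OVA (adjusted p = 0.00447) and -0.16 in WT (adjusted p = 0.0619), where it was called when treated WT replicate 1 (0.000911), treated OVA replicate 2 (0.0424) or treated OVA replicate 3 (0.0320) was left out.

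The T cell and natural killer cell receptors of these ligands were nearly absent. Of 12 receptor genes, 11 stayed under 1 CPM in every library, and Pdcd1, Cd28, Icos, Cd226 and Pvrig had no counts at all. Havcr2 (Tim-3) was the only 1 tested, with a log2 change of -0.46 in OVA (adjusted p = 0.114) and -1.01 in WT (adjusted p = 0.00233).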

How the data were processed

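Poly-A RNA of the 10 samples was sequenced, per the labels' protocols. The authors deposited raw read counts per Ensembl gene. Per the submitters' processing notes, the build was GRCm39 and the tools were featureCounts 1.6.0 and HISAT2 2.0.5. Annotation release, strand setting and treatment of multiply mapped reads: not given in the sources used here. The samples were treated as cell lines, as most labels have them, although the extraction text mentions tissue.

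Counts were tested with the two-sided quasi-likelihood F test of edgeR 4.0.16 (R 4.3.3), with TMM factors and filterByExpr, on all 10 samples with 4 group means and no other covariate, with Benjamini-Hochberg adjustment over 15526 genes at 0.05. Adjusted p-values are from that fit unless DESeq2 1.42.0 or limma 3.58.1 (limma-voom) is named. Levels are CPM with TMM factors. SEs and 95% intervals are Wald values from the fit. Levels per kilobase use merged exon lengths of GENCODE M21 (GRCm38), chosen after the data were seen because the table has no lengths. Promoter sequences are from RefSeq.

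The 9 members, the gene lists and the alternatives were chosen with earlier results of these data known. Besides the members, the named genes are up to 6 per list with the largest absolute log2 change among those called under IFN-γ, and the 5 nearest profiles of each member raised at least 2-fold. Some genes of the lists are counted but not reported here by name. Replicate libraries differed by more than sampling noise in every group.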

Additional observations from a re-analysis of the deposited data

Results flagged for a closer look

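Thbs1, the secreted CD47 ligand, was the only gene among the members and named list genes whose IFN-γ response differed between the lines in edgeR's test of the difference with all libraries, the low count filter and no replicate block. DESeq2, for example, also called Lgals3 (adjusted p = 0.0317) and Lgals1 (0.0347). The log2 difference, OVA minus WT, was -0.87 ± 0.128 (SE, adjusted p = 0.00338). It had 1706, 1691 and 1665 counts in treated OVA libraries, against 144 and 151 in untreated ones. In WT it had 2327, 2413 and 2256 counts in treated libraries, against 91 and 114 in untreated ones. OVA libraries were thus lower than WT under IFN-γ and higher untreated, with no overlap in either condition. The difference no longer passed without WT untreated replicate 1 (adjusted p = 0.0672) or OVA untreated replicate 2 (adjusted p = 0.0508).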

How the results depend on the processing

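The alternatives were DESeq2 size factors or library totals for scaling, DESeq2 or limma-voom as the test, no or a stricter low count filter, a fit of only the groups compared, a replicate block, and leaving out each library. Of 800 refitted log2 changes of the members, 762 kept their direction and side of the threshold, 12 lost and 4 gained a call, and 22 changed sign, none of them a called value. The calls of the 6 risen members in each line held in all of them. The planned levels scaled by a length column were not run, because the table has none. The cause of the moves below was not tested. At this depth the untreated level of Tnfrsf14 rested on 6 counts in OVA and 7 in WT.

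For the difference of responses, the count of members called was 1 with DESeq2, with no filter and with the replicate block (0 in the main result, 0 to 1 with 1 library left out), each time Lgals3. Over all genes it was 103 with DESeq2, 284 with no filter and 165 with the block, against 53, and 21 to 107 with 1 library left out. Among nectins and others, and among genes of PD-L1 transcription, 1 gene each (Lgals1 in the nectin group) was called with DESeq2, with no filter and with the block, against 0. With 1 library left out, 0 to 1 was called for PD-L1 transcription, PD-L1 protein and the genes linked to CD47. Without a filter or with the block, 1 receptor (Havcr2) was called in OVA, against 0. Between untreated lines, DESeq2 called 552 genes against 859 (350 to 1012 with 1 library left out, and 1 to 3 of the members). Under IFN-γ it called 1454 against 2229 (1431 to 2408). The Lgals9 call between untreated lines was lost with limma-voom (adjusted p = 0.0652) and the Cd47 call under IFN-γ with library totals (0.0624).

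Sign changes, all of uncalled values, were to 0.0096 for Icosl in OVA with the block, to 0.016 for Cd274 and 0.011 for Cd276 in the difference with library totals, and to -0.32 in the difference and 0.13 between untreated lines for Tnfrsf14 with limma-voom. With 1 library left out, the range was -0.27 to 0.18 for Icosl in OVA. For the difference it was -0.19 to 0.18 for Cd274, -0.10 to 0.063 for Cd276, -1.64 to 0.79 for Tnfrsf14 and -0.039 to 0.12 for Lgals9. For OVA against WT untreated it was -0.14 to 0.23 for Cd274, -0.0049 to 0.054 for Nectin2, -0.99 to 1.44 for Tnfrsf14 and -0.28 to 0.20 for Icosl, and for Pvr under IFN-γ -0.046 to 0.0041.

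The replicate numbers were not used to pair the samples in the main fit. The deviations of 13 same-numbered pairs correlated at -0.072 to 0.035, none over 0.1. In groups of 2 libraries the deviations mirror each other, so these correlations are not independent and cannot exclude a pairing.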
